A study of Camellia sinensis with 24 samples.

Results

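Potassium (K) is the most abundant cation of plant cells, where it sets turgor and balances charge across membranes. Roots take it up through HAK/KUP/KT carriers and Shaker-type channels, and the K that reaches the shoot is partly sent back to the roots in the phloem. In a split-root culture the roots of one plant grow in separate solutions, so that roots without K in their own solution belong to a plant that is still supplied elsewhere. The comparison described here sets such roots against roots of plants with no K on either side, in the tea (Camellia sinensis) genotype “1601”.

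“1601” is an F1 plant of the cross Longjing 43 × Baihaozao and tolerates low K poorly, whereas “1511”, from the same cross, tolerates it well. One-year-old cuttings, which are clonal copies of the genotype, stood in hydroponic split-root boxes of 12 plants and received K on both sides for 60 days, after which the treatments ran for 5 days. Sp.SK was the side with 0 mM K2SO4 of boxes whose other side held 1 mM (that other side is Sp.NK), and U.SK had 0 mM on both sides. U.NK, with 1 mM on both sides, was used only for values set beside these. The 3 Sp.SK and 3 U.SK libraries of “1601” are 6 of the 24 libraries of the series. All were made from roots with their cell types mixed, so that fewer cells of a type and less RNA per cell cannot be told apart. The libraries were made from 3 replicates of each treatment. The p-values set each difference against a spread between replicates that was estimated over all 24 libraries.

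Sp.SK replicate 1 stood apart from its group. Reads counted on genes numbered 18279912, 19151351 and 22525843 in the 3 Sp.SK libraries and 14974618, 22020152 and 20091322 in the 3 U.SK libraries, within the range of all 24 libraries (13214833 to 26309637). The first principal component of the 6 libraries held 52.4% of the variance and put the 3 Sp.SK libraries on one side and the 3 U.SK libraries on the other. On this component Sp.SK replicate 1 (-116.9) lay farther out than Sp.SK replicates 2 and 3 (-50.67 and -34.68). The second, with 21.1%, set Sp.SK replicate 1 (61.18) against Sp.SK replicates 2 and 3 (-44.78 and -66.08). U.SK replicate 3 was at 49.64 on it. Across genes, Sp.SK replicate 3 correlated at 0.9795 with Sp.SK replicate 2, 0.961 with U.SK replicate 2 and 0.9546 with Sp.SK replicate 1. The biological coefficient of variation, which is the relative spread between replicates beyond counting error, was 0.302 on Sp.SK and 0.191 on U.SK.

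**Figure D1:**
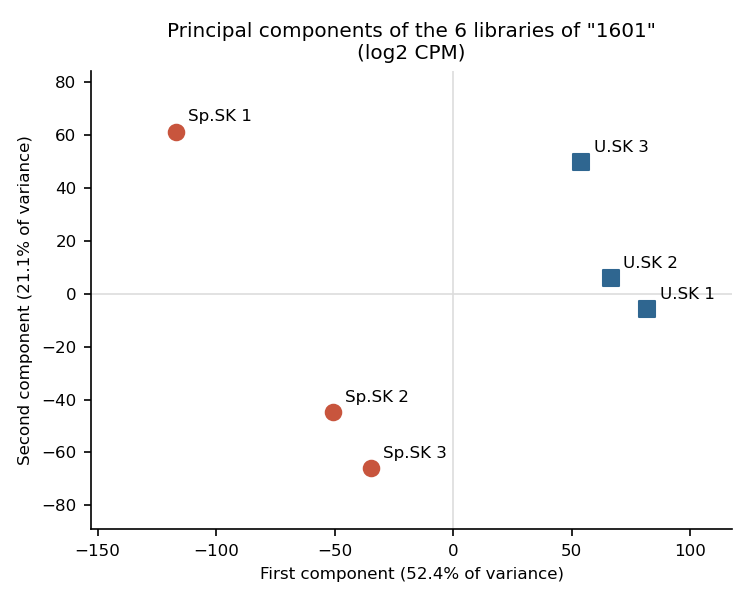
First against second principal component of log2 CPM (counts scaled to library size) of the 6 libraries of “1601”, Sp.SK as circles and U.SK as squares, with replicate numbers. The first axis (52.4% of the variance) separates the groups, with Sp.SK replicate 1 farthest out. That library also lies away from the other Sp.SK libraries on the second (21.1%).

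More genes were lower than higher on Sp.SK, and the lower ones differed by more. Of 35557 genes tested, 916 (2.58%) were called higher and 1508 (4.24%) lower in Sp.SK roots compared with U.SK roots at an adjusted p under 0.05 (edgeR quasi-likelihood test, Benjamini-Hochberg). The median log2 fold change was 0.94 among the higher genes and -1.72 among the lower ones, and a change of at least 2-fold was found for 419 (45.7%) of the former and 1206 (80.0%) of the latter. The Sp.SK and U.SK libraries did not overlap for 905 and 1493 of these genes, against 16.2% of all tested genes with every Sp.SK library above every U.SK library and 16.5% with every one below. The calls use these same libraries, so that the lack of overlap largely follows from them and is no separate evidence. Without Sp.SK replicate 1 the counts were 165 (0.454%) and 498 (1.37%), and without U.SK replicate 1 they were 162 and 614. Leaving out Sp.SK replicate 2 gave 558 and 728, Sp.SK replicate 3 gave 814 and 1144, U.SK replicate 2 gave 222 and 786, and U.SK replicate 3 gave 383 and 956. These fits tested 36322 to 36454 genes. In each of the 6 fits that left out a library, 104 of the higher and 367 of the lower genes were called, and below a gene is said to hold in every fit when it is one of these. Ranges of a list's count are also over these 6 fits. Genes were grouped into 47 lists by the Pfam protein families in their descriptions. Each list is given by its counts, and those of the full fit are to be read against the 2.58% and 4.24% of all genes. A list's count without a library is to be read against the counts of all genes in that same fit, given above, which fell too.

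**Figure D2:**
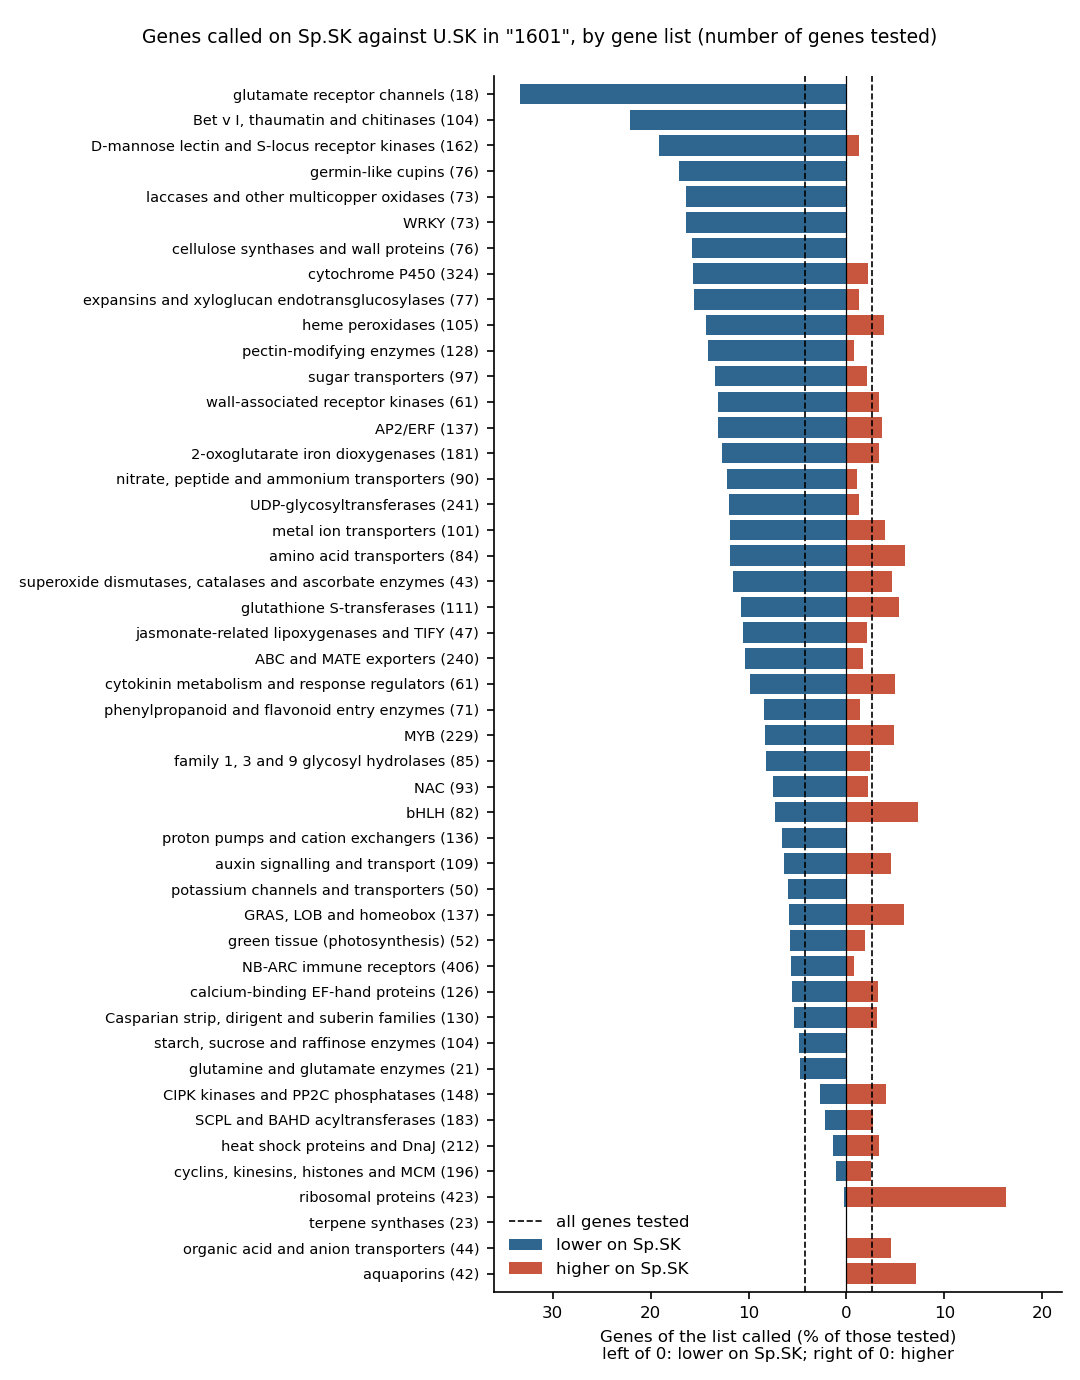
Share of the tested genes of each of the 47 lists called lower (left of 0) and higher (right of 0) on Sp.SK relative to U.SK in “1601”, in percent, with the number tested in parentheses and the shares of all tested genes as dashed lines (4.24% and 2.58%). Lower calls lead in most lists, and ribosomal proteins and aquaporins are among the few where higher calls lead.

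The genes with the largest falls included a thaumatin, a thioredoxin, a hydrophobic seed protein and a lipase. TEA032837, a thaumatin-family protein (a family of pathogenesis-related proteins of which some members bind fungal wall glucans), is a gene of 1 exon on scaffold 2510, 1307520 to 1308197, minus strand. It was at 4.42, 0.295 and 3.94 CPM on Sp.SK and at 359, 543 and 458 CPM on U.SK. Every Sp.SK library was thus far below every U.SK library, with a log2 fold change of -7.29 (SE 1.53, adjusted p = 0.00835). On the other 2 conditions of “1601” it was at 61.9, 144 and 5.35 CPM (Sp.NK) and at 549, 2184 and 1159 CPM (U.NK). TEA024732, a thioredoxin (thioredoxins reduce disulfide bonds) on scaffold 2344, 534938 to 536070, was at 0.213, 0.196 and 0.297 CPM on Sp.SK and 20.8, 16.8 and 27.2 CPM on U.SK. It was barely expressed in all 3 Sp.SK libraries (log2 fold change -6.46, SE 0.89, adjusted p = 7.01e-04). TEA016957, described as a hydrophobic seed protein, was at 91.2, 25.2 and 34.6 CPM against 822, 754 and 1616 CPM (log2 fold change -4.40, SE 0.69, adjusted p = 0.00151). Its highest Sp.SK library was replicate 1, still well below the lowest U.SK library. TEA018069, a GDSL-type lipase, was at 1.44, 0.442 and 0.976 CPM against 17.6, 19.3 and 22.8 CPM (log2 fold change -4.38, SE 0.57, adjusted p = 4.83e-04). These 4 genes held in every fit, the thaumatin gene with an adjusted p of at most 0.0445.

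Other large falls were nearer to the threshold, so that their calls were lost without some libraries while the fold changes stayed large. TEA032173, which has no description, was at 0.426, 0.245 and 0.339 CPM on Sp.SK and 30.2, 167 and 38 CPM on U.SK (log2 fold change -7.84, SE 1.74, adjusted p = 0.012), and was not called without Sp.SK replicate 1 (0.0634) or 2. TEA010816, a glutathione S-transferase, which conjugates glutathione to other molecules, was at 3.57, 0.737 and 0.551 CPM on Sp.SK and 87.5, 124 and 80.7 CPM on U.SK (log2 fold change -5.94, SE 1.37, adjusted p = 0.015). The groups were far apart, but its adjusted p was above 0.05 without Sp.SK replicate 2 (0.061) and without Sp.SK replicate 3. TEA002533, a 2-oxoglutarate iron dioxygenase, was at 92.7, 18.1 and 13.3 CPM against 732, 746 and 865 CPM (log2 fold change -4.24, SE 1.02, adjusted p = 0.0187), and its call was lost without the same libraries (up to 0.0709). TEA026133, a fatty acid desaturase, was at 35.1, 3.73 and 3.22 CPM against 301, 350 and 343 CPM (adjusted p = 0.0323) and was called in 1 of the 6 fits only, the one without Sp.SK replicate 1. Its adjusted p reached 0.101 without Sp.SK replicate 2. Over the alternatives the log2 fold change was -8.48 to -6.64 for TEA032173, -7.23 to -5.51 for TEA010816, -5.64 to -3.82 for TEA002533 and -6.57 to -4.10 for TEA026133. In TEA002533 and TEA026133, Sp.SK replicate 1 was the highest of its group by a wide margin.

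Among the genes that rose most were transporters. TEA031848, an ABC transporter of the PDR type (membrane pumps that export a range of compounds), was at 25.3, 28.4 and 13.3 CPM on Sp.SK and 3.22, 3.41 and 1.02 CPM on U.SK. Even the lowest Sp.SK library was above every U.SK library (log2 fold change 3.13, SE 0.52, adjusted p = 0.00246). TEA029779, an EamA-like transporter, was at 12.3, 12.3 and 5.47 CPM against 0.789, 0.744 and 0.925 CPM (log2 fold change 3.60, SE 0.71, adjusted p = 0.00736). Both held in every fit, as did a pair of newly assembled genes. The first of these has no description and lies on scaffold 2358, 780520 to 781382, and the second, on scaffold 237, 477476 to 479583, carries the galacturonan-binding domain of wall-associated kinases. They were at 9.27, 11.2 and 11.5 CPM against 1.31, 0.437 and 0.828 CPM, and at 19.1, 30.9 and 28.8 CPM against 1.97, 4.37 and 2.39 CPM (log2 fold changes 3.66 and 3.16, SE 0.66 and 0.58, adjusted p = 0.00354 and 0.00407). TEA025515, a probable lipid transfer protein, was at 417, 170 and 104 CPM against 16.6, 35.5 and 29.5 CPM (log2 fold change 3.08, SE 0.67, adjusted p = 0.0104). Its Sp.SK libraries were spread widely with replicate 1 the highest, and the call was lost without Sp.SK replicate 1 (0.0705) or U.SK replicate 1. TEA014287, a glycine-rich protein, was at 4.37, 81.2 and 21.9 CPM against 2.56, 3.06 and 0.925 CPM (log2 fold change 4.03, SE 1.01, adjusted p = 0.0227), and was not called without Sp.SK replicate 2 (0.114) or without any 1 of the U.SK libraries.

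Where genes of the pathogenesis-related families were called, they were lower on Sp.SK. These families include Bet v I proteins (small proteins that bind hydrophobic ligands), thaumatins and chitinases, which cut the chitin of fungal walls, and many of their members are induced by pathogens and by jasmonate, ethylene or salicylate. Of 104 tested, 23 were called lower and none higher (22.1%, against 4.24% of all genes lower), and the median log2 fold change was -0.91. Every Sp.SK library was below every U.SK library for 43 of the 104 genes, against 16.5% of all genes. The number called lower was 8, 12 and 22 without Sp.SK replicates 1, 2 and 3, and 10, 12 and 13 without U.SK replicates 1, 2 and 3. The summed level of the 104 genes was 3662, 4094 and 4642 CPM on Sp.SK and 14210, 12310 and 12200 CPM on U.SK, a ratio of the means of 3.12. The groups were well separated in this sum, with means of 4133 ± 491 CPM and 12910 ± 1130 CPM (SD, n = 3).

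TEA022587, a Bet v I protein on scaffold 502 (47847 to 48925), made up a large part of that sum. It was at 193, 246 and 559 CPM on Sp.SK and 3330, 2788 and 2245 CPM on U.SK. All 3 Sp.SK libraries were under the U.SK libraries (log2 fold change -3.07, SE 0.48, adjusted p = 0.00153). TEA017523, also of the Bet v I family, was at 50.2, 83.8 and 113 CPM against 565, 541 and 398 CPM (log2 fold change -2.61, SE 0.40, adjusted p = 0.00125). Both held in every fit and were named after their values were seen. TEA007244, a class I chitinase named in the same way, was at 30.9, 38.2 and 73.8 CPM against 314, 249 and 153 CPM (log2 fold change -2.32, SE 0.48, adjusted p = 0.0076). The adjusted p of TEA007244 was 0.0526 without Sp.SK replicate 1. On Sp.NK, the side of the same boxes with K, TEA022587 was at 2855, 4466 and 1594 CPM and TEA017523 at 778, 1050 and 345 CPM, and on U.NK they were at 3428, 4168 and 4230 CPM and at 781, 651 and 850 CPM. Sp.SK was thus the lowest of the 4 conditions for both genes.

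**Figure D3:**
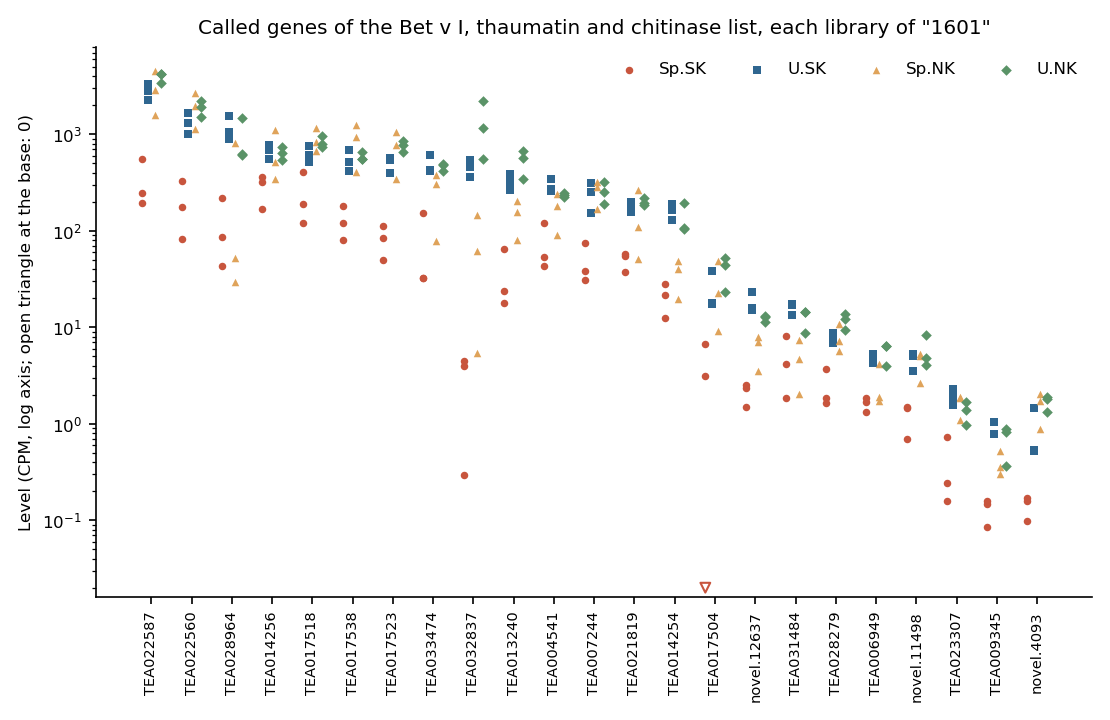
Level in CPM, on a log axis, of the 23 called genes of the Bet v I, thaumatin and chitinase list in each of the 12 libraries of “1601”, ordered by their mean on U.SK, with an open triangle at the base for a library at 0. The Sp.SK circles lie below the U.SK squares, as for TEA022587 (193 to 559 CPM against 2245 to 3330 CPM).

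Surface receptors and other immune genes mostly fell where they were called, and lower calls also led among all genes. D-mannose lectin and S-locus receptor kinases, which sense carbohydrates or self and non-self signals at the cell surface, had 31 of 162 lower and 2 higher, and 15 lower without Sp.SK replicate 1. Their summed level was 816 ± 86.4 CPM on Sp.SK and 1318 ± 144 CPM on U.SK. TEA002897 of this group was at 1.81, 4.17 and 9.8 CPM against 55.5, 42.7 and 29 CPM (log2 fold change -3.00, SE 0.58, adjusted p = 0.00591). WRKY factors, transcription factors of defence and stress, had 12 of 73 lower, none higher, and 5 lower without Sp.SK replicate 1, without Sp.SK replicate 2 or without U.SK replicate 1. TEA007969 among them was at 1.6, 1.47 and 2.67 CPM against 14.7, 11.2 and 8.43 CPM, with all Sp.SK libraries below (log2 fold change -2.56, SE 0.51, adjusted p = 0.0064). NB-ARC proteins, the intracellular immune receptors, had 23 of 406 lower and 3 higher (8 lower without Sp.SK replicate 1, 9 without U.SK replicate 1, 11 without Sp.SK replicate 2 and 12 without U.SK replicate 2). Called in either direction were 6.4% of them, near the 6.82% of all genes, and 5.67% were lower, against 4.24%. TEA028038 of this family was at 0.426, 0.491 and 0.976 CPM against 4.67, 5.07 and 5.65 CPM (log2 fold change -2.99, SE 0.42, adjusted p = 7.31e-04). Wall-associated receptor kinases had 8 of 61 lower (2 to 6, with 2 without Sp.SK replicate 1 or U.SK replicate 1) and 2 higher. Germin-like cupins, a family with secreted oxidases and storage proteins, had 13 of 76 lower and none higher, but only 2 or 3 lower without Sp.SK replicate 1, Sp.SK replicate 2 or U.SK replicate 1, and 7 or 8 without U.SK replicate 2 or 3. The summed level of the cupins overlapped between the groups (3479 ± 1451 CPM and 3206 ± 288 CPM). TEA026394, a cupin, was at 22.9, 14.5 and 33.7 CPM against 271, 161 and 150 CPM (log2 fold change -3.03, SE 0.53, adjusted p = 0.00302). These 4 genes held in every fit.

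Enzymes that make or use reactive oxygen at the cell surface were among the lower genes. TEA011880 on scaffold 639, 1543487 to 1551420, has 12 exons and the ferric reductase and NADPH oxidase domains of a respiratory burst oxidase, which makes superoxide outside the cell. It was at 35.9, 33.4 and 52.3 CPM on Sp.SK and 240, 150 and 137 CPM on U.SK. The highest Sp.SK library was well under the lowest U.SK library, and the fold change had one of the smallest errors of the named genes (log2 fold change -2.12, SE 0.23, adjusted p = 2.31e-04). On Sp.NK it was at 119, 112 and 109 CPM and on U.NK at 135, 117 and 153 CPM, so that Sp.SK alone was low. TEA028710, with a respiratory burst NADPH oxidase domain, was at 1.07, 1.92 and 2.12 CPM against 8.09, 8.66 and 6.72 CPM (log2 fold change -2.19, SE 0.35, adjusted p = 0.00178). Both held in every fit. The list that holds them, with superoxide dismutases, catalases and ascorbate enzymes, had 5 of 43 lower and 2 higher. One of the latter was TEA024679, a glutathione peroxidase, which removes peroxides. It was at 451, 362 and 280 CPM against 127, 189 and 197 CPM (log2 fold change 1.09, SE 0.28, adjusted p = 0.0244), without overlap, but was called only without Sp.SK replicate 3 or U.SK replicate 3 (up to 0.126, without Sp.SK replicate 1).

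Heme peroxidases and laccases, which couple phenols in lignin and other wall polymers, had 15 of 105 lower with 4 higher and 12 of 73 lower with none higher. The lower peroxidases numbered 7, 8 and 16 without Sp.SK replicates 1, 2 and 3 and 8, 9 and 11 without U.SK replicates 1, 2 and 3, and the lower laccases 4, 7 and 12 and then 4, 5 and 9. The laccase list had a summed level of 696 ± 160 CPM on Sp.SK and 1821 ± 353 CPM on U.SK. TEA020596, a laccase-type multicopper oxidase, was at 13.6, 11.3 and 27.5 CPM on Sp.SK and 214, 185 and 99.2 CPM on U.SK. TEA028448, of the same domains, was at 1.39, 5.45 and 2.8 CPM against 20.7, 28 and 39.9 CPM. In both genes the Sp.SK libraries lay below all U.SK libraries, with log2 fold changes of -3.24 (SE 0.61, adjusted p = 0.00457) and -3.20 (SE 0.63, adjusted p = 0.00616) that held in every fit. TEA005755, a peroxidase, was at 0.213, 0.196 and 0.467 CPM against 5.00, 2.84 and 1.71 CPM, low in all 6 libraries (log2 fold change -3.37, SE 0.67, adjusted p = 0.00645), and held in every fit.

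Enzymes of the wall polysaccharides followed the same direction. Pectin-modifying enzymes (pectinesterases, their inhibitors, lyases and polygalacturonases) had 18 of 128 lower and 1 higher, with 6 lower without Sp.SK replicate 1. Their summed level was 2491 ± 42.2 CPM on Sp.SK and 3843 ± 200 CPM on U.SK. Cellulose synthases and wall proteins had 12 of 76 lower and none higher, with 6 lower without Sp.SK replicate 1 and 8 without U.SK replicate 1 or 2, and summed levels of 2485 ± 775 CPM and 4736 ± 261 CPM. TEA010813, a cellulose synthase on scaffold 35, was at 2.34, 7.61 and 6.07 CPM against 34.6, 28.2 and 30.3 CPM. Its libraries did not overlap and it held in every fit (log2 fold change -2.53, SE 0.35, adjusted p = 7.01e-04). Expansins and xyloglucan endotransglucosylases, which loosen and rejoin wall polymers in growing cells, had 12 of 77 lower and 1 higher, with 5 to 8 lower when a library was left out, and 5 without Sp.SK replicate 1 or 2. The 1 that was higher was a newly assembled xyloglucan endotransglucosylase on scaffold 19277 (5652 to 8414), at 20.2, 12.5 and 8.99 CPM against 1.77, 2.19 and 0.877 CPM (log2 fold change 3.10, SE 0.84, adjusted p = 0.0319). It was called only without Sp.SK replicate 3 among the 6 fits (up to 0.124, without Sp.SK replicate 1). Glycosyl hydrolases of families 1, 3 and 9 had 7 of 85 lower (3 to 5, with 3 without any 1 of the U.SK libraries) and 2 higher. The families of the Casparian strip, dirigent proteins and suberin had 7 of 130 lower and 4 higher. These shares, 5.38% and 3.08%, were near the 4.24% and 2.58% of all genes. Without Sp.SK replicate 1 the list had 1 lower and none higher.

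K transporters were called at a share near that of all genes. Of 50 tested genes of K channels and transporters 3 were lower and none higher. This is 6.00%, against 6.82% of all genes called in either direction and 4.24% called lower. The list was narrowed after the values were seen, and as first written it had 9 of 83 lower and none higher. The median log2 fold change was -0.18. Every Sp.SK library was above every U.SK library for 5 of the 50 genes and below for 10. The shares of all genes were 16.2% and 16.5%, and the libraries of the other 35 genes overlapped. The summed level of the list was 1074, 1391 and 1419 CPM on Sp.SK and 1351, 1366 and 1238 CPM on U.SK, with overlap. Called lower were TEA011201, TEA022010 and TEA023021, all of the HAK/KUP/KT carriers. TEA011201, on scaffold 2984, was at 3.14, 7.96 and 8.44 CPM on Sp.SK and 21.8, 18.1 and 14.9 CPM on U.SK. The Sp.SK libraries lay below the U.SK libraries, replicate 1 lowest, and the fall held in every fit (log2 fold change -1.48, SE 0.30, adjusted p = 0.00714). TEA022010, on scaffold 1271, was at 6.5, 6.38 and 4.28 CPM against 17.4, 21.4 and 31.4 CPM (log2 fold change -2.03, SE 0.50, adjusted p = 0.0212). Its adjusted p was above 0.05 without any one of the Sp.SK libraries or without U.SK replicate 3, at most 0.0729. TEA023021, on scaffold 1846, was at 0.0533, 0.0982 and 0.17 CPM against 2.1, 1.49 and 1.31 CPM. It was lower in every Sp.SK library and held in every fit (adjusted p = 0.0031), but had as few as 1 count in a Sp.SK library, so that the size of its fold change is uncertain.

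The K carriers with the most counts per length showed no common direction. TEA021417 was at 130, 156 and 134 CPM on Sp.SK and 116, 136 and 118 CPM on U.SK, TEA005066 at 117, 197 and 262 CPM against 244, 238 and 230 CPM, and TEA003873 at 190, 184 and 115 CPM against 71.9, 85.4 and 84.8 CPM. Their log2 fold changes were 0.18 (SE 0.13), -0.30 (SE 0.28) and 1.01 (SE 0.36), with edgeR adjusted p = 0.44, 0.566 and 0.0935. For TEA003873 alone every Sp.SK library was above every U.SK library.

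Aquaporins, the water channels of the plasma membrane and the vacuole, were higher in summed level. The 42 tested genes together were at 28260, 17580 and 15120 CPM on Sp.SK and at 7504, 8907 and 9818 CPM on U.SK, a ratio of the means of 2.32. Every Sp.SK library was above every U.SK library, with replicate 1 well above the others. Of the 42 genes 19 had all Sp.SK libraries above all U.SK libraries, against 16.2% of all genes. The median log2 fold change was 0.55, and 3 were called higher and none lower (7.14%, against 2.58% of all genes higher). The number called higher was 0 without Sp.SK replicate 1 or without U.SK replicate 1 and 5 without Sp.SK replicate 3. TEA003869, on scaffold 854, was at 2707, 2213 and 1795 CPM against 780, 1023 and 983 CPM (log2 fold change 1.27, SE 0.33, adjusted p = 0.0262). TEA013439 was at 83.6, 65.3 and 85.1 CPM against 31.2, 32.3 and 36.9 CPM (log2 fold change 1.22, SE 0.33, adjusted p = 0.0318), and TEA008169, the remaining called gene, at 2311, 1737 and 1735 CPM against 763, 949 and 1055 CPM (log2 fold change 1.06, SE 0.24, adjusted p = 0.0141). In all 3 the groups were apart, and over the alternatives the log2 fold change stayed at 1.11 to 1.41 for TEA003869 and 1.07 to 1.33 for TEA013439. Their calls were nonetheless near the threshold. TEA003869 was called in 1 of the 6 fits, without Sp.SK replicate 3 (up to 0.117), TEA013439 in 1, without Sp.SK replicate 2 (up to 0.118), and TEA008169 in 4, not without Sp.SK replicate 1 or U.SK replicate 1 (up to 0.0801).

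**Figure D4:**
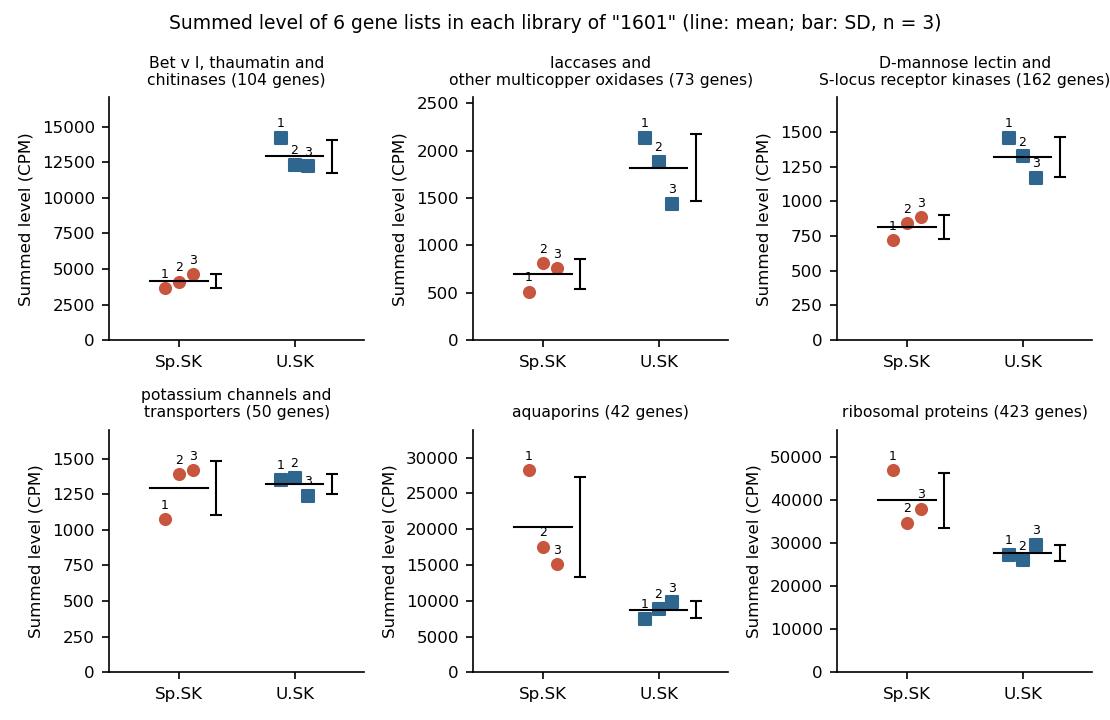
Summed level in CPM of all tested genes of 6 lists in each library of “1601” (points with replicate numbers, line at the mean, bar for the SD, n = 3). Bet v I, thaumatin and chitinase genes (4133 and 12910 CPM), laccases and lectin receptor kinases are lower on Sp.SK, aquaporins and ribosomal proteins higher, and K channels and transporters overlap.

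Carriers of other solutes were called lower more often than higher in most lists, as were all genes (4.24% lower and 2.58% higher). Proton pumps and cation exchangers, which set the proton gradient that drives uptake, had 9 of 136 lower (5 to 8, with 5 without Sp.SK replicate 1) and none higher. Their share called, 6.62%, was near the 6.82% of all genes called in either direction. TEA011108, a proton pyrophosphatase, was at 3.25, 6.09 and 4.84 CPM on Sp.SK and 20.5, 17.5 and 17 CPM on U.SK, below in every library (log2 fold change -1.95, SE 0.39, adjusted p = 0.00668). Nitrate, peptide and ammonium transporters had 11 of 90 lower and 1 higher, with 4 to 7 lower when a library was left out and 4 without Sp.SK replicate 1 or U.SK replicate 3. TEA014284 of the POT family (proton-coupled nitrate or peptide carriers) was at 1.71, 1.38 and 1.49 CPM against 12, 6.69 and 11.7 CPM (log2 fold change -2.73, SE 0.40, adjusted p = 9.57e-04). Metal ion transporters had 12 of 101 lower and 4 higher, and only 1 to 6 lower when a library was left out (1 without U.SK replicate 2). Here TEA015273, with a heavy-metal-associated domain, rose. It was at 34.3, 28.9 and 25 CPM against 5.19, 7.48 and 8.57 CPM, high in every Sp.SK library (log2 fold change 2.05, SE 0.38, adjusted p = 0.00446). TEA011108, TEA014284 and TEA015273 held in every fit.

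Of the sugar transporters 13 of 97 were lower and 2 higher (5 to 9 lower when a library was left out, with 7 without Sp.SK replicate 1 and 5 without U.SK replicate 1), and their summed level was 2751 ± 466 CPM on Sp.SK and 4561 ± 503 CPM on U.SK. TEA000047 was at 1.17, 1.23 and 0.424 CPM against 6.9, 5.56 and 8.82 CPM, below in all libraries (log2 fold change -2.92, SE 0.39, adjusted p = 5.98e-04). A newly assembled sugar efflux transporter of the SWEET type on scaffold 2236 (177456 to 181247) went the other way. It was at 24.7, 28.5 and 27.1 CPM against 4.6, 9.36 and 5.45 CPM (log2 fold change 2.04, SE 0.52, adjusted p = 0.0239) and was called only without Sp.SK replicate 3 or U.SK replicate 2 (up to 0.111). Amino acid transporters had 10 of 84 lower (6 to 12, with 6 without Sp.SK replicate 1) and 5 higher (1 to 4, with 1 without U.SK replicate 2). TEA009395 was at 1.39, 1.28 and 2.38 CPM against 7.5, 8.09 and 7.89 CPM (log2 fold change -2.21, SE 0.27, adjusted p = 3.58e-04). TEA021847 was at 21.3, 58 and 93.9 CPM against 440, 349 and 195 CPM (log2 fold change -2.50, SE 0.46, adjusted p = 0.00421), with no overlap despite a wide spread in both groups. ABC and MATE exporters had 25 of 240 lower and 4 higher (8 lower without Sp.SK replicate 1, 10 without U.SK replicate 1 and 15 without Sp.SK replicate 2), and organic acid and anion transporters 2 of 44 higher and none lower. TEA010694, an aluminium-activated malate transporter, a channel that releases malate, was one of the latter. It was at 5.65, 6.58 and 2.46 CPM against 1.12, 0.787 and 0.584 CPM (log2 fold change 2.57, SE 0.75, adjusted p = 0.0433), and was called only without Sp.SK replicate 3 (up to 0.134). TEA000047, TEA009395 and TEA021847 held in every fit.

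In the signalling lists a kinase of the CIPK type rose. CIPKs, kinases with a NAF domain, are switched on by calcium sensors, and in Arabidopsis one of them activates the K channel AKT1 when K is low, while PP2C phosphatases act against it. TEA006064, with protein kinase and NAF domains, was at 89.9, 61.5 and 55.5 CPM on Sp.SK and 20.2, 30.9 and 24.6 CPM on U.SK. All Sp.SK libraries were above all U.SK libraries, replicate 1 highest (log2 fold change 1.45, SE 0.22, adjusted p = 0.00123). Sp.NK, at 61.3, 39.1 and 64.8 CPM, was close to Sp.SK, and U.NK, at 24.1, 27.8 and 33.5 CPM, to U.SK. TEA018374, a PP2C, was at 6.39, 6.48 and 12.8 CPM against 24.1, 19.1 and 18.1 CPM, lower in every Sp.SK library (log2 fold change -1.25, SE 0.25, adjusted p = 0.00655). Both held in every fit. In all, 6 of 148 CIPK and PP2C genes were higher (1 to 7, with 1 without Sp.SK replicate 1 or U.SK replicate 1) and 4 lower (1 to 2). Of 126 EF-hand proteins, which bind calcium, 4 were higher (0 to 3, with 0 without Sp.SK replicate 1 or U.SK replicate 1) and 7 lower (1 to 5, with 1 without Sp.SK replicate 2, U.SK replicate 1 or U.SK replicate 2). Glutamate receptor channels, cation channels of plant calcium signals in a list added after the values were seen, had 6 of 18 lower and none higher, but 1 lower without Sp.SK replicate 1 or U.SK replicate 1 and 2 without Sp.SK replicate 2 or U.SK replicate 2. TEA010156 of this family was at 0.693, 0.344 and 1.23 CPM against 5.19, 3.11 and 3.51 CPM (log2 fold change -2.35, SE 0.58, adjusted p = 0.0212). It was not called without Sp.SK replicate 1, Sp.SK replicate 2 or U.SK replicate 1 (up to 0.0925).

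Enzymes of secondary metabolism were called lower more often than higher in several large families. Cytochromes P450, oxygenases that build and modify many plant compounds, had 51 of 324 lower and 7 higher, with 23 lower without Sp.SK replicate 1 and 30 without U.SK replicate 1, and summed levels of 7064 ± 643 CPM on Sp.SK and 10090 ± 516 CPM on U.SK. TEA016772 was at 10.8, 5.79 and 6.91 CPM against 129, 88.5 and 67.7 CPM (log2 fold change -3.60, SE 0.57, adjusted p = 0.00153). TEA006672 was at 9.06, 5.65 and 9.84 CPM against 107, 64.2 and 63.9 CPM (log2 fold change -3.25, SE 0.46, adjusted p = 7.03e-04). Both were low in all 3 Sp.SK libraries. TEA014018 was a P450 that rose, at 52.9, 37.7 and 49 CPM against 17.4, 15.8 and 11 CPM (log2 fold change 1.66, SE 0.29, adjusted p = 0.00282). All 3 held in every fit. UDP-glycosyltransferases had 29 of 241 lower and 3 higher (14 lower without Sp.SK replicate 1, 15 without U.SK replicate 1 and 16 without Sp.SK replicate 2), and 2-oxoglutarate iron dioxygenases 23 of 181 lower and 6 higher (12 and 13 lower without Sp.SK replicates 1 and 2, and 15 without Sp.SK replicate 3 or U.SK replicate 1). Glutathione S-transferases had 12 of 111 lower (3 to 9, with 3 without Sp.SK replicate 2) and 6 higher (2 to 7, with 2 without Sp.SK replicate 1), with a summed level that overlapped. The enzymes at the entry to phenylpropanoids and flavonoids, the pathway of lignin precursors and tea catechins, had 6 of 71 lower and 1 higher, and SCPL and BAHD acyltransferases 5 of 183 higher (1 to 6, with 1 without Sp.SK replicate 1 or U.SK replicate 1) and 4 lower.

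Primary metabolism gave fewer calls. Enzymes of starch, sucrose and raffinose had 5 of 104 lower (1 to 6, with 1 without Sp.SK replicate 1) and none higher. TEA012039, with trehalose-phosphatase and trehalose-phosphate synthase domains (trehalose 6-phosphate is a signal of sucrose status), was at 7.51, 8.94 and 20.5 CPM on Sp.SK and 191, 207 and 159 CPM on U.SK. The Sp.SK libraries were far below, and the fall held in every fit (log2 fold change -3.91, SE 0.66, adjusted p = 0.00251). On Sp.NK it was at 94.2, 182 and 49.9 CPM and on U.NK at 166, 338 and 280 CPM. TEA012804, with sucrose synthase and sucrose-phosphatase domains, was at 3.94, 4.17 and 4.92 CPM against 18.5, 12.5 and 14.6 CPM (log2 fold change -1.80, SE 0.38, adjusted p = 0.00852). Its adjusted p was 0.0509 without Sp.SK replicate 1. TEA012804 and the peroxidase TEA005755 were the 2 called among 22 of the genes that the study names, and both were lower. Of 21 enzymes of glutamine and glutamate 1 was lower. It was TEA026779, a glutamate synthase, at 166, 313 and 347 CPM against 872, 805 and 609 CPM (log2 fold change -1.47, SE 0.37, adjusted p = 0.0252), which was not called without Sp.SK replicates 1 or 2 or U.SK replicates 1 or 2 (up to 0.137).

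Among hormone-related genes the jasmonate list had 5 of 47 lower and 1 higher, with 3 to 5 lower when a library was left out, 3 of them without Sp.SK replicate 1. Its summed level was 2022 ± 110 CPM on Sp.SK and 2997 ± 440 CPM on U.SK. TEA012289, a lipoxygenase, the kind of enzyme that starts jasmonate synthesis, was at 32.3, 34.5 and 27.9 CPM against 114, 125 and 95.3 CPM. TEA020075, an allene oxide cyclase, which acts later in the same pathway, was at 11, 10.3 and 8.99 CPM against 29, 26.9 and 43.8 CPM. Both were lower in all Sp.SK libraries, with log2 fold changes of -1.82 (SE 0.35, adjusted p = 0.00498) and -1.72 (SE 0.33, adjusted p = 0.00565) that held in every fit. Auxin genes had 5 of 109 higher and 7 lower, each 1 to 4 with a library left out and 1 without Sp.SK replicate 1 or U.SK replicate 1. TEA024212, an AUX/IAA repressor of auxin responses, was at 13.9, 3.88 and 5.73 CPM against 2.04, 1.66 and 2.43 CPM (log2 fold change 1.93, SE 0.46, adjusted p = 0.0187), with replicate 1 the highest, and was not called without Sp.SK replicate 1 (0.156), U.SK replicate 1 or U.SK replicate 2. Cytokinin metabolism and response regulators had 3 of 61 higher (0 to 2, with 0 without any 1 of the U.SK libraries) and 6 lower (2 to 4, with 2 without Sp.SK replicate 1). TEA033521, a response regulator with a CCT motif, as clock proteins have, was at 7.03, 12.7 and 9.16 CPM against 27.6, 28.4 and 48.9 CPM (log2 fold change -1.86, SE 0.33, adjusted p = 0.00324) and held in every fit. TEA012287, another response regulator, was at 140, 102 and 99.3 CPM against 57.8, 59.7 and 63.7 CPM (log2 fold change 0.91, SE 0.23, adjusted p = 0.0235), without overlap, but was called only without Sp.SK replicate 2 or 3 (up to 0.131).

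Transcription factors changed in both directions. AP2/ERF factors, many of which respond to ethylene or to water and cold stress, had 18 of 137 lower and 5 higher (5, 6 and 9 lower without Sp.SK replicates 1, 2 and 3, and 7, 10 and 6 without U.SK replicates 1, 2 and 3). TEA030964 rose, from 5, 5.21 and 3.51 CPM on U.SK to 13.1, 14.9 and 14.8 CPM on Sp.SK (log2 fold change 1.64, SE 0.27, adjusted p = 0.00198). TEA003052 was at 28.2, 28.8 and 65.7 CPM on Sp.SK against 203, 140 and 132 CPM on U.SK (log2 fold change -1.95, SE 0.43, adjusted p = 0.0114), but was not called without Sp.SK replicate 1 (0.0732), Sp.SK replicate 2 or U.SK replicate 1. MYB factors had 11 of 229 higher and 19 lower, bHLH factors 6 of 82 in each direction, NAC factors 2 of 93 higher and 7 lower, and GRAS, LOB and homeobox factors 8 of 137 in each direction. With a library left out, MYB factors had 1 to 7 higher (1 without Sp.SK replicate 1 or U.SK replicate 1) and 6 to 11 lower (6 without Sp.SK replicate 2), and bHLH factors 1 to 6 higher and 1 to 4 lower (both 1 without U.SK replicate 1). NAC factors had 2 to 6 lower (2 without U.SK replicate 1), and GRAS, LOB and homeobox factors 0 to 7 higher (0 without U.SK replicate 2) and 2 to 3 lower. TEA004388, a NAC factor, was at 13.1, 8.84 and 6.32 CPM against 1.58, 1.09 and 1.56 CPM, above in all libraries (log2 fold change 2.74, SE 0.56, adjusted p = 0.00763). TEA025544, of the homeodomain leucine zipper class, was at 22.8, 11.2 and 13.7 CPM against 83.8, 71.1 and 66.4 CPM, below in all (log2 fold change -2.21, SE 0.31, adjusted p = 7.03e-04). TEA030964, TEA004388 and TEA025544 held in every fit. TEA011054, a bHLH factor, was at 280, 198 and 149 CPM against 65.7, 72.9 and 103 CPM (log2 fold change 1.38, SE 0.33, adjusted p = 0.0174), and was not called without Sp.SK replicate 1 (0.105), U.SK replicate 1 or U.SK replicate 2.

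Ribosomal protein genes, a mark of the capacity for protein synthesis, were called higher far more often than lower. Of 423 tested 69 were called higher and 1 lower (16.5%), the median log2 fold change was 0.47, and 368 had a fold change above 0. Every Sp.SK library was above every U.SK library for 259 of the 423 genes, against 16.2% of all genes. Proteins of the large subunit (42 of 258 higher, 1 lower, median 0.47) and of the small subunit (26 of 136 higher, none lower, median 0.52) had similar values. The summed level was 46930, 34770 and 37980 CPM on Sp.SK and 27270, 26060 and 29660 CPM on U.SK, a ratio of the means of 1.44. All Sp.SK libraries were above all U.SK libraries, replicate 1 by the most, and only 5 genes were called higher without Sp.SK replicate 1. Leaving out U.SK replicates 1, 2 and 3 gave 8, 9 and 30 genes, and leaving out Sp.SK replicates 2 and 3 gave 59 and 46. Many ribosomal proteins are coded by near-identical copies, whose reads can be divided between them. Cyclins, kinesins, histones and MCM proteins, which mark dividing cells, had 5 of 196 higher (0 to 4, with 0 without Sp.SK replicate 1, U.SK replicate 1 or U.SK replicate 2) and 2 lower, with a median log2 fold change of 0.10. Heat shock proteins and DnaJ co-chaperones had 7 of 212 higher (0 to 5, with 0 without Sp.SK replicate 1) and 3 lower. TEA028346, a small heat shock protein, was at 11.4, 5.55 and 4.07 CPM against 1.12, 0.7 and 0.731 CPM (log2 fold change 3.05, SE 0.74, adjusted p = 0.019), and was not called without Sp.SK replicate 1 (0.0999) or without any 1 of the U.SK libraries.

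Genes of photosynthesis, which mark green tissue and should be low in roots, were listed as a check of the tissue. Of 52 tested 1 was higher and 3 lower, and their summed level was 1759, 1893 and 1683 CPM on Sp.SK and 1858, 1927 and 3199 CPM on U.SK, with overlap and with U.SK replicate 3 the highest. The median log2 fold change of the list was -0.50. TEA005542, a small subunit of Rubisco, was at 125, 76.6 and 63.3 CPM against 187, 193 and 234 CPM (log2 fold change -1.21, SE 0.28, adjusted p = 0.0139), and was not called without Sp.SK replicate 2 (0.0562) or 3. The part of these transcripts in the differences between the groups was not tested.

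The other conditions of “1601” place these values. The comparisons share libraries with the one above, so their values are given side by side only. Against U.NK, 2554 genes (7.18%) were called on Sp.SK, and between the sides of the same boxes, Sp.NK and Sp.SK, 478 (1.34%), in a fit that did not pair the sides. Between U.SK and U.NK, 0 of the 35557 genes were called in the same fit, which does not make their levels equal. Of the 916 higher genes 4 were called between Sp.NK and Sp.SK, and of the 1508 lower genes 292. The lectin receptor kinase TEA002897, for instance, was at 47.5, 58.2 and 32.5 CPM on Sp.NK and 24.6, 40.2 and 70.8 CPM on U.NK, against 1.81 to 9.8 CPM on Sp.SK. The ABC transporter TEA031848 was at 23.5, 12.1 and 21.3 CPM on Sp.NK, similar to Sp.SK, and at 4.12, 2.83 and 3.92 CPM on U.NK, similar to U.SK.

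The change from U.SK to Sp.SK differed between the genotypes for many of these genes. A term for the difference, the log2 fold change in “1601” minus that in “1511”, was called for 4981 of all tested genes (14.0%, edgeR, Benjamini-Hochberg). It was called for 245 (26.7%) of the 916 genes higher and for 701 (46.5%) of the 1508 genes lower in “1601”. Since both the difference and these calls use the same “1601” libraries, the shares describe the genes and are no separate evidence. In “1511” itself, 295 of the 916 genes were called in the same direction and 49 in the opposite one, and of the 1508 genes 213 in the same and 169 in the opposite one, where 17.4% of all tested genes were higher and 13.8% lower.

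The trehalose-phosphate gene TEA012039 had a log2 fold change of -3.91 in “1601” and 2.11 in “1511”, a difference of -6.01 (SE 0.90, adjusted p = 4.38e-04, edgeR). For the thioredoxin gene TEA024732 the values were -6.46 and 3.40, a difference of -9.87 (SE 1.37, adjusted p = 2.91e-04). In both genes the genotypes thus moved in opposite directions, and each change was past the threshold in its own genotype (adjusted p = 0.014 and 0.0263 in “1511”). The respiratory burst oxidase TEA011880 had -2.12 and 0.14 (adjusted p of the difference 3.30e-04, edgeR) and the thaumatin gene TEA032837 -7.29 and 0.17 (0.0116). Of the defence list 23 of 104 genes differed between the genotypes, of the laccases 27 of 73, of the cytochromes P450 77 of 324, of the K channels and transporters 7 of 50, the same share as the 14.0% of all genes, and of the ribosomal proteins 20 of 423, a smaller share. In “1511”, 162 of the 423 ribosomal protein genes were called higher and 18 lower, against 17.4% and 13.8% of all genes. The K carrier TEA003873 had 1.01 in “1601” and 2.04 in “1511”, a difference of -1.03 (SE 0.51) that did not pass the threshold (adjusted p = 0.18).

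**Figure D5:**
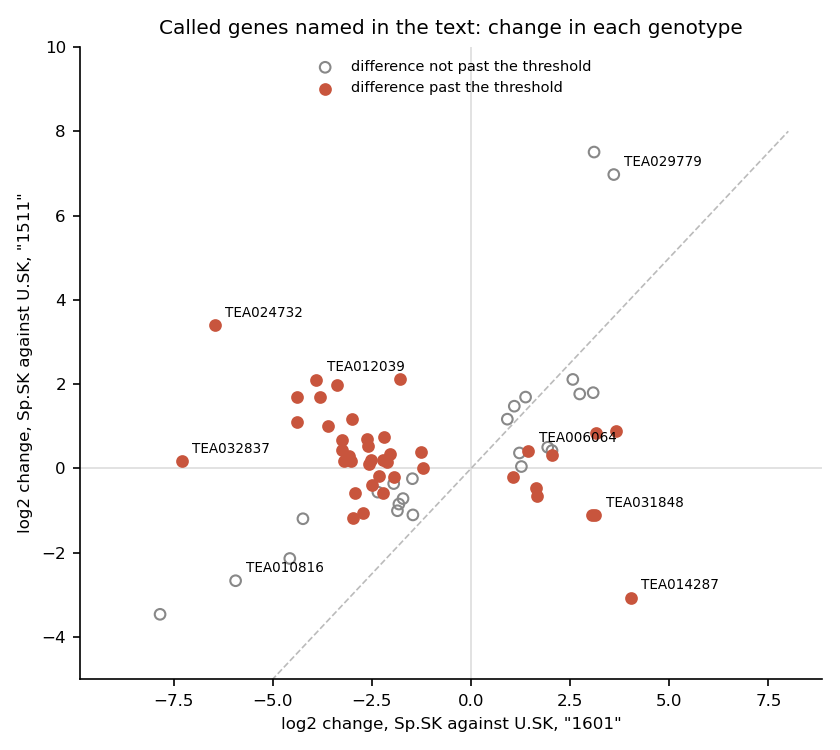
Log2 fold change of Sp.SK against U.SK in “1601” (x axis) and in “1511” (y axis) for the 65 called genes of “1601” named in the text, filled where the difference between the genotypes passed the threshold (42 genes), with equal change on the dashed line. TEA024732 (-6.46 and 3.40) and TEA012039 (-3.91 and 2.11) lie in the quadrant of opposite directions.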

How the data were processed

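RNA of roots was sequenced on the Illumina HiSeq platform. Per the submitters' processing notes, CASAVA 1.7 and HISAT2 2.0.5 were used, and reads were aligned to the scaffold-level tea genome. Raw counts per gene, not normalized, were deposited by the authors for all 24 libraries, with 14573 newly assembled genes beside 33932 models. The counting program and strandedness are not given in the sources used here, so near-identical copies and antisense genes may share reads. Other columns deposited by the authors give gene positions, exons and length, which for the models is a coding length. FPKM values and the authors' comparisons were not used.

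Library names were taken from the sample titles. In R 4.3.3, edgeR 4.0.16 fitted 8 group means to 24 libraries (TMM, filterByExpr, glmQLFit, 16 residual degrees of freedom), and contrasts were tested with glmQLFTest and adjusted by Benjamini-Hochberg over 35557 genes. Sharing the spread over all groups uses more libraries than the 6 compared. Genes were called at an adjusted p under 0.05, the study's threshold. CPM values are scaled by TMM. Depth was 14974618 to 22525843 counted reads in the 6 libraries. Replicate spread exceeded counting error, so no counting intervals are given.

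The members and lists were chosen with earlier results of these data known. Of 47 lists of Pfam words, 10 were narrowed and 1 (glutamate receptor channels) was added after the values were seen. Most genes were named from the called genes without overlap and with over 3 counts in every library, so their lack of overlap follows from the choice. At a mean of at least 5 CPM these were the 10 described genes with the largest change in each direction. The gene without a description that changed most in each direction was added. From each list came the 2 per direction with the largest change at a mean of at least 1 CPM. The 3 K genes with the highest level per length, called or not, were also named. So were the 2 called among 22 of the genes the study names. Not all of these are printed. Further genes were named after their values were seen (TEA022587, TEA017523, TEA007244, TEA008169, TEA023021 and TEA030991). Alternatives were DESeq2 1.42.0 size factors or tests, limma 3.58.1 voom with quality weights, other filters, a replicate block, fewer libraries, and each compared library left out in turn.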

Additional observations from a re-analysis of the deposited data

Results flagged for a closer look

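The change from U.SK to Sp.SK differed between the genotypes for 4981 genes by a test of the difference itself (edgeR, Benjamini-Hochberg, “1601” minus “1511” on the log2 scale), and 42 of the genes named in the text were among them. The cause of these differences was not tested. The change in “1601” is part of the difference, so that its sign, here and below, largely follows from the choice of genes. In those of the 42 genes that fell in “1601” the difference was negative. Among defence and receptor genes it was -7.46 for TEA032837, -3.35 for TEA022587, -3.14 for TEA017523, -2.15 for TEA007244, -3.20 for TEA026394, -4.17 for TEA002897, -2.68 for TEA007969 and -1.80 for TEA028038. For redox and wall genes it was -9.87 for TEA024732, -2.26 for TEA011880, -2.94 for TEA028710, -5.36 for TEA005755, -3.92 for TEA020596, -3.38 for TEA028448 and -2.73 for TEA010813. TEA024732, TEA018069, TEA005755, TEA012039, TEA012804 and TEA023021 were also called higher on Sp.SK in “1511”, and so changed in opposite directions.

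For metabolic genes the difference was -6.08 for TEA018069, -5.51 for TEA016957, -4.60 for TEA016772, -3.69 for TEA006672, -6.01 for TEA012039, -3.92 for TEA012804 and -3.33 for TEA030991. For transport genes it was -5.49 for TEA023021, -2.37 for TEA022010, -1.75 for TEA011108, -1.67 for TEA014284, -2.10 for TEA021847, -2.40 for TEA009395 and -2.34 for TEA000047. It was -1.65 for the PP2C TEA018374, -1.64 for the homeobox factor TEA025544 and -1.23 for the Rubisco gene TEA005542. TEA028038 and TEA014284 were lower on Sp.SK in “1511” too, by less.

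In the named genes with a called difference that rose in “1601”, this difference was positive. It was 7.10 for TEA014287, 4.24 for TEA031848, 4.16 for TEA028346, 2.31 for TEA014018, 2.12 for TEA030964, 1.74 for TEA015273, 1.26 for TEA008169 and 1.03 for TEA006064. For the newly assembled genes on scaffolds 2358 and 237 it was 2.77 and 2.33. TEA014287 was called lower on Sp.SK in “1511”.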

How the results depend on the processing

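The counts of called genes moved most under other tests and when a library was left out. Against 916 higher, 1508 lower and 4981 that differed between the genotypes, limma voom with sample quality weights gave 6016, 6595 and 11337. edgeR on the 12 libraries of “1601” gave 1794 higher and 2470 lower genes (it has no term for the difference), and DESeq2 on only the libraries compared gave 1838 and 2720. Leaving out a compared library gave 162 to 814 higher, 498 to 1144 lower and 2820 to 6154 differing genes, the lowest of the last without U.SK replicate 1 of “1511” and the next (2909) without Sp.SK replicate 1 of “1511”. DESeq2 size factors, both other filters, leaving out newly assembled genes and edgeR on only the libraries compared stayed within 1.5 times of the reported counts, although the share of higher calls, 37.8% as reported, was 47.3% with at least 10 counts in every library and 47.7% with voom. Similar counts did not mean the same genes. Of the 2424 genes called as reported, 1693 were among the 2710 called by edgeR on only the 6 libraries compared. With the replicate number as a block the counts were 827, 1446 and 4973. Libraries of the same number correlated at -0.21, 0.13 and -0.29 in their deviations from the group means. These values gave no sign of pairing by number, but so few libraries cannot exclude it. Over all genes chosen for naming and all alternatives, 1933 values kept their direction and side of the threshold, 489 were no longer past it, 5 newly were, and 0 reversed. Most of these genes were chosen as called without overlap between the groups. A reversal could thus hardly occur, and its absence is no separate evidence. The cause of these shifts was not tested. Depth limits the genes with few counts, such as TEA024732, which had at most 0.297 CPM in a Sp.SK library.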

Other observations

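Pfam families with at least 10 tested genes gave further groups, chosen after their values were seen and given with no test. Berberine bridge enzyme-like proteins, flavin oxidases of which some oxidize cell wall oligosaccharides in Arabidopsis, had 10 of 17 tested genes lower on Sp.SK and none higher, with a median log2 fold change of -2.14. The count was 2 without Sp.SK replicate 1, without Sp.SK replicate 2 or without U.SK replicate 1. TEA030991 of this family, on scaffold 1299 (112095 to 113408), was at 0.959, 2.65 and 5.05 CPM on Sp.SK and 21.9, 16.6 and 15.4 CPM on U.SK. Its groups were apart (log2 fold change -2.62, SE 0.60, adjusted p = 0.014, edgeR), and it was not called without those same libraries (up to 0.0755). On Sp.NK it was at 11.8, 9.27 and 10.5 CPM and on U.NK at 13.2, 14.5 and 15.9 CPM. Petal formation-expressed proteins had 5 of 14 lower (none without Sp.SK replicate 1 or U.SK replicate 1), proteinase inhibitors of the potato inhibitor I family 4 of 10 lower (none without Sp.SK replicate 1), and class I chitinases 7 of 21 lower (2 without Sp.SK replicate 1).

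Sp.NK replicate 2 was high for several genes that fell most on Sp.SK. TEA010816 was at 9.67, 110 and 3.42 CPM on Sp.NK, TEA002533 at 73.4, 754 and 61.1 CPM and TEA026133 at 12.8, 178 and 12.6 CPM. For these 3 genes the K-supplied side of the same boxes thus had 1 library far above the other 2, for TEA026133 still below every U.SK library.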
